A study of Mus musculus with 28 samples.

Results

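The 37 genes of the mouse mitochondrial genome were examined, out of 45318 gene rows in the deposited count files. They were chosen as all rows annotated to chromosome MT, and comprise 13 protein genes, 2 rRNA genes and 22 tRNA genes. The libraries were made from the wall of the left ventricle away from the infarct, in male Hsd:ICR(CD-1) mice. Surgery was done 1 or 7 days after birth, and was either myocardial infarction (MI) by tying off the left anterior descending coronary artery or a SHAM operation without the tie. Tissue was collected 3 or 21 days later, so that the 3-day follow-up had the infarcted groups 1d-MI + 3 and 7d-MI + 3 beside their controls 7d-SHAM + 3 and 1d-SHAM + 3, with n = 4 mice each, and the same 4 groups at + 21 had n = 3 mice each. The study compared the regenerative heart of the mouse operated on day 1 with the heart operated on day 7. No genetic change or drug separated the groups, and the pups were kept with their litter and mother.

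Mitochondrial DNA is a small circle that is read from both strands into long precursor RNAs, in which tRNA genes stand between most of the rRNA and protein genes. Cutting out the tRNAs releases the other RNAs, so all genes of a strand start from shared transcripts and later differ by processing and decay. The 13 proteins are core subunits of complexes I, III, IV and V of oxidative phosphorylation, the machinery that gives the beating heart most of its ATP. All other subunits come from nuclear genes, and the heart builds up both sets after birth as it turns from glycolysis to fatty acid oxidation.

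Shares and levels are used below, both built from the deposited counts. Shares are percentages of a library's counts, and because mitochondrial rRNA (mt-Rnr1 and mt-Rnr2) took up to 32.5% of all counts, protein and tRNA shares were taken among counts other than MT rRNA. Levels of a gene are counts per 1000000 (CPM) of counts other than MT rRNA, where that total was multiplied by a scaling factor from trimmed means of M-values (TMM). Libraries held 33077962 to 51942648 counts at 3 days and 40514177 to 168550985 at 21 days, and counting error was at most 0.0179 percentage points on any share (the widest arm of a 95% Wilson interval, which covers counting error only). The sum of 12 ventricular cardiomyocyte markers was 28700 to 84500 CPM at 3 days and 29200 to 61800 CPM at 21 days, above 4 atrial markers in every library. These sums cannot show how far from the infarct a sample was taken. At 3 days the atrial sums were higher after infarction, with means of 3840 against 245 CPM on day 1 and 1740 against 160 CPM on day 7. Of the 3 atrial markers tested singly by edgeR, 2 were called higher on day 1 and 1 on day 7. The sums thus do not show a rise of every atrial marker. At 21 days nuclear rRNA loci took 0.321% to 62.7% of the counts of a library and at 3 days 0.0325% to 0.254%, and the 2 follow-ups differed in library kit and sequencer, so they were analysed apart.

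Along the mitochondrial genome the counts were not even. Of the 13 protein genes, 7 were read at high levels: mt-Nd1 (MT:2751-3707), mt-Nd2 (MT:3914-4951), mt-Co1 (MT:5328-6872), mt-Nd4 (MT:10167-11544), mt-Nd5 (MT:11742-13565), mt-Nd6 (MT:13552-14070, the only protein gene on the minus strand) and mt-Cytb (MT:14145-15288). They held 130885 to 11793639 counts in a library at 3 days. The other 6, mt-Co2 (MT:7013-7696), mt-Atp8 (MT:7766-7969), mt-Atp6 (MT:7927-8607), mt-Co3 (MT:8607-9390), mt-Nd3 (MT:9459-9806) and mt-Nd4l (MT:9877-10173), held 67 to 2047. Levels per kilobase were summed up as the median of each gene over all libraries of a follow-up, whatever their group. These medians were 7970 to 169000 CPM for the first set and 9.83 to 127 CPM for the second at 3 days. At 21 days they were 5150 to 65600 against 33.8 to 1750 CPM. The 6 low genes and 4 tRNA genes lie in 1 unbroken stretch, MT:6942-10173 (GRCm38).

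A stretch of nuclear chromosome 1 carries annotated copies of the same genes. In the GENCODE M21 transcripts of GRCm38, Gm28661 (chr1:24614885-24615565) matched mt-Co2 over 681 bases at 100% identity, Gm10925 (chr1:24613974-24614651) matched mt-Atp6 over 678 bases, Gm28437 (chr1:24613189-24613971) matched mt-Co3 over 783 bases and Gm10222 (chr1:24612407-24612700) matched mt-Nd4l over 294 bases, all at 100%. Gm28438 (chr1:24612775-24613119, minus strand) differed from mt-Nd3 by 1 base in the 345 bases aligned, T3C, counted from 1 at the first base of mt-Nd3. The first 48 bases of both are shown because they hold the one base by which aligned reads can be told apart, in capitals.
mt-Nd3, MT:9459-9506, plus strand: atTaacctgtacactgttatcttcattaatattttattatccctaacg
Gm28438, chr1:24613072-24613119, minus strand: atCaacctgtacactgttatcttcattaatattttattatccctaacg
Of all 75-base windows of mt-Co2, mt-Atp6, mt-Co3, mt-Nd3 and mt-Nd4l, 97.8% to 99.9% occur unchanged in a nuclear transcript. The share was 61.5% for mt-Nd4, 39.8% for mt-Co1, 5.71% for mt-Nd2, 1.66% for mt-Nd5 and 0% for mt-Nd1, mt-Nd6, mt-Cytb, mt-Atp8 and both rRNA genes. The nuclear rows held counts as well: at 3 days Gm28438 had a median of 5524.5 counts in a library and Gm10925 1548.5, and at 21 days Gm10925 had 105292.5. How reads with several matches were treated is not given in the sources used here, and the part of the copies in the low counts was not tested. Levels of the 6 genes of this stretch are therefore given apart from the 7 others, and are uncertain.

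Within the stretch mt-Atp8 and mt-Atp6, the 2 ATP synthase subunits of complex V, share 43 bases on the same strand, so that reads there belong to both. The last 90 bases of mt-Atp8 are shown with the shared bases in capitals.
mt-Atp8, MT:7880-7969, plus strand: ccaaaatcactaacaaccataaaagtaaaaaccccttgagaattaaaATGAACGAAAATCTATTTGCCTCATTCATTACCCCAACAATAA
A copy of mt-Atp8 was not found among the transcripts searched, yet its counts were as low as those of its neighbours at 3 days, 12.2 to 55.3 CPM. mt-Nd5 and mt-Nd6 overlap by 14 bases on opposite strands. The strand setting of the counting is not given in the sources used here, so reads of a gene and of RNA antisense to it cannot be told apart.

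**Figure D1:**
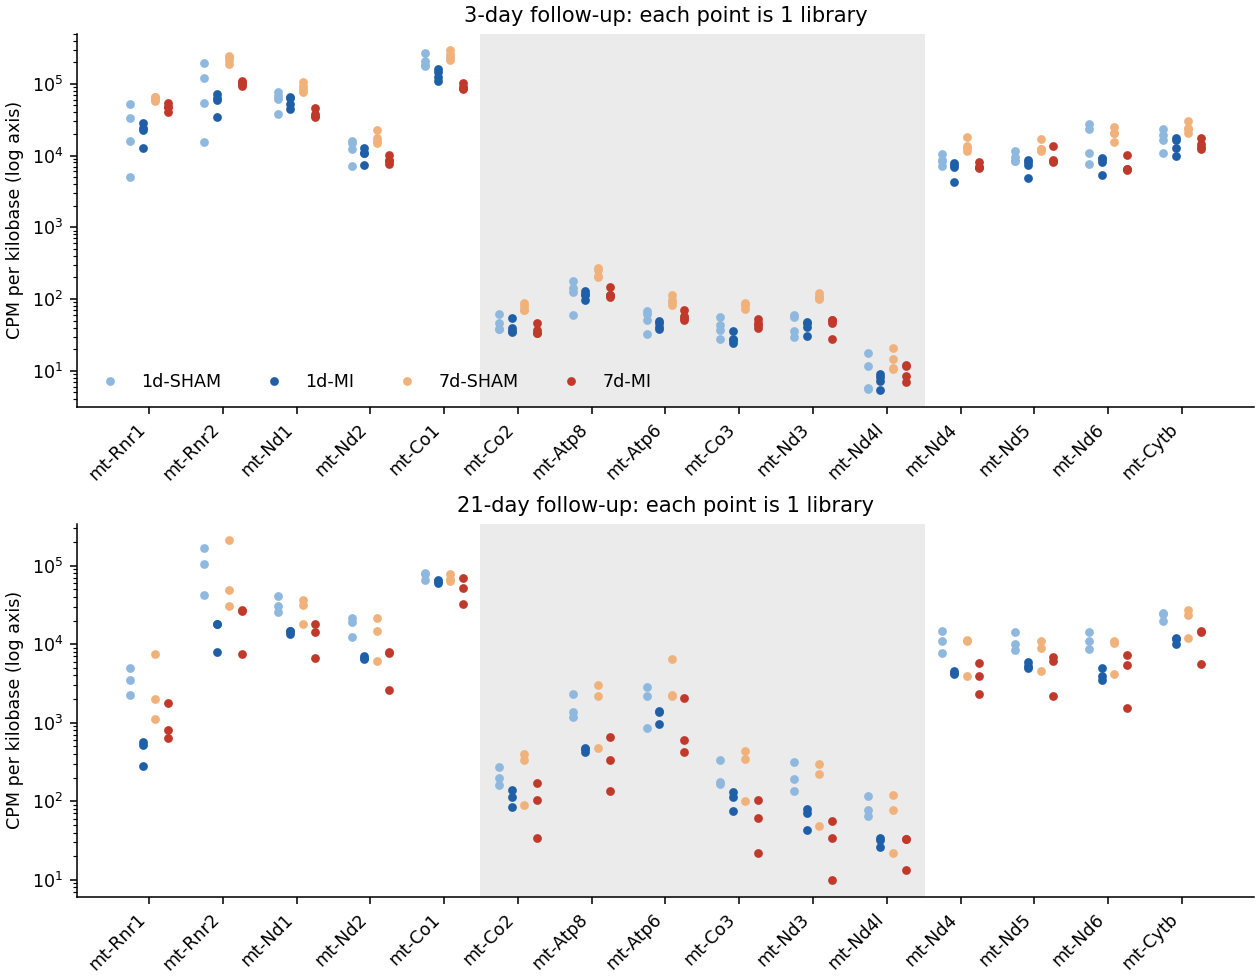
Levels of the 2 rRNA and 13 protein genes of chromosome MT in genome order, as CPM per kilobase on a log axis, with 1 point per library and colours for the 4 groups of the 3-day (top) and 21-day (bottom) follow-up. The grey band marks the 6 protein genes of MT:6942-10173. Their medians over all 3-day libraries were 9.83 to 127 CPM per kilobase, against 7970 to 169000 for the 7 other protein genes.

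The rRNAs of the mitochondrial ribosome are mt-Rnr1 (12S, MT:70-1024) and mt-Rnr2 (16S, MT:1094-2675), both read from the plus strand. Together they took 23.6%, 25.8%, 24.2% and 22.8% of all counts in 7d-SHAM + 3 against 19.3%, 20.8%, 18.4% and 19.5% in 7d-MI + 3. The 7d-MI libraries all lay under the 7d-SHAM libraries, with a ratio of means on the log scale of 0.809. In the hearts operated on day 1 the shares ran from 2.89% to 22.6% in 1d-SHAM + 3 and from 7.75% to 13.8% in 1d-MI + 3, so the groups overlapped. The wide range of 1d-SHAM + 3 followed the animal name prefix: the 2 libraries of prefix 1078 had 2.89% and 9.25% and the 2 of prefix 1103 had 16.8% and 22.6%. The same 2 libraries of prefix 1078 had 28454 and 30025 genes with a count against 20612 and 20069 for prefix 1103, and the part of this in the rRNA share was not tested.

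At 3 days the ratio of the 2 rRNAs was lower after infarction at both ages in every library. Counts of mt-Rnr2 over counts of mt-Rnr1 were 5.95, 6.18, 5.92 and 5.32 in 7d-SHAM + 3 against 4.48, 3.79, 2.84 and 3.42 in 7d-MI + 3. In the hearts operated on day 1 they were 5.05, 5.66, 6.14 and 6.21 in 1d-SHAM + 3 against 4.19, 4.32, 4.28 and 4.38 in 1d-MI + 3. Every MI library thus lay below every SHAM library of its age. Means were 3.63 ± 0.689 against 5.84 ± 0.366 (SD, n = 4 each) for day 7, with an exact permutation p = 0.0286 (two-sided, the smallest that 4 against 4 allows) and 0.12 after Benjamini-Hochberg adjustment over 80 comparisons of shares and ratios. For day 1 they were 4.29 ± 0.0788 against 5.77 ± 0.538 (SD, n = 4 each), with the same exact permutation p = 0.0286. None of the 80 comparisons passed after adjustment, and 19 reached 0.0286. Taken gene by gene, the quasi-likelihood test of edgeR, adjusted after Benjamini and Hochberg, called neither rRNA in any comparison: in 7d-MI + 3 against 7d-SHAM + 3 mt-Rnr2 had a log2 change of -1.11 (SE 0.48, adjusted p = 0.089) and mt-Rnr1 -0.40 (SE 0.45, adjusted p = 0.54).

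The protein genes took a smaller share of the library after infarction on day 7. Among counts other than MT rRNA they made up 48.7%, 45.3%, 43.7% and 41.3% in 7d-SHAM + 3 against 29.7%, 26.8%, 26.8% and 27.3% in 7d-MI + 3, with no overlap. The means were 44.8 ± 3.11% and 27.6 ± 1.37% (SD, n = 4 each), a ratio of 0.618 with an exact permutation p = 0.0286 and an adjusted p of 0.12. After infarction on day 1 the shares were 39.4%, 36.8%, 38.1% and 31.8% against 36.8%, 40.7%, 41.8% and 47.2% in 1d-SHAM + 3, which overlapped (ratio 0.877, exact permutation p = 0.114). tRNA genes made up 0.107 ± 0.014% in 7d-MI + 3 and 0.152 ± 0.0229% in 7d-SHAM + 3 (SD, n = 4 each, ratio 0.702, no overlap, exact permutation p = 0.0286), and 0.102 ± 0.0197% and 0.109 ± 0.0251% in 1d-MI + 3 and 1d-SHAM + 3 (SD, n = 4 each), which overlapped. In libraries of whole tissue, fewer cardiomyocytes and less mitochondrial RNA in each cell cannot be told apart.

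**Figure D2:**
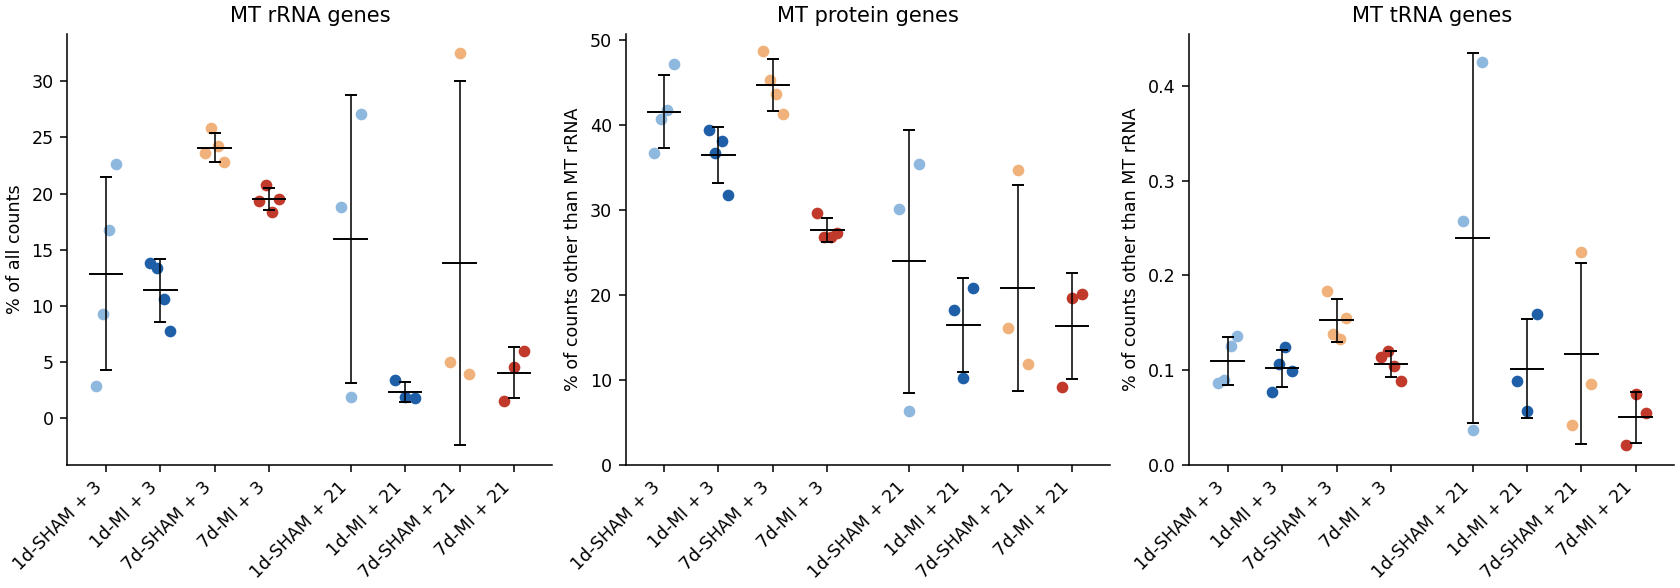
Share of MT rRNA genes in all counts (left) and of MT protein genes (middle) and MT tRNA genes (right) in counts other than MT rRNA, in percent, with 1 point per library and a line with bars for the mean and SD of each group. At 3 days the 4 libraries of 7d-MI lie between 26.8% and 29.7% for the protein genes, under all other groups of that follow-up, while at 21 days every group spreads widely.

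Gene by gene, 7d-MI + 3 against 7d-SHAM + 3 was the comparison with the most calls. By the quasi-likelihood test of edgeR, adjusted after Benjamini and Hochberg over 20055 genes, 11 of the 13 protein genes were lower and 0 higher, where 15.5% of all genes tested were lower and 19.1% higher. The median log2 change of the 13 was -0.96, that of the 7 genes outside the copied stretch -1.03 and that of all genes 0.05. All 11 stayed lower when any 1 library was left out. All 4 libraries of 7d-SHAM + 3 carried the name prefix 1075, which no library of 7d-MI + 3 had, and each 21-day group had 1 prefix of its own. The other 3-day groups shared no prefix either. Prefix and group thus cannot be told apart in any comparison, whichever library is left out. Their size depends on the scaling: without TMM factors the median of all genes moved from 0.05 to 0.63 and that of the protein genes to -0.37, so that the distance of the 2 medians stayed close to the -1.01 found with TMM factors, while 5 rather than 11 genes passed.

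Complex IV, cytochrome c oxidase, where electrons meet oxygen, has mt-Co1, mt-Co2 and mt-Co3 as its core. mt-Co1, which carries the heme and copper centre, was at 450000, 406000, 366000 and 330000 CPM in 7d-SHAM + 3 against 158000, 134000, 132000 and 139000 CPM in 7d-MI + 3. The groups lay far apart, and the log2 change of -1.46 (SE 0.19, adjusted p = 6.2e-06, edgeR) had the smallest adjusted p of the 13 genes. mt-Co2 fell by 1.04 (SE 0.17) and mt-Co3 by 0.84 (SE 0.17) on the log2 scale, both at the low levels of the copied stretch: mt-Co3 was at 64.9, 69.2, 57.2 and 66.2 CPM in 7d-SHAM + 3 against 31.2, 36.5, 41.6 and 34.1 CPM in 7d-MI + 3.

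Complex I, which takes electrons from NADH, draws on 7 genes. mt-Nd1, part of the membrane arm next to the quinone site, was at 101000, 87800, 80600 and 74400 CPM in 7d-SHAM + 3 against 43700, 34300, 32900 and 36700 CPM in 7d-MI + 3, a log2 change of -1.22 (SE 0.20, adjusted p = 9.8e-05, edgeR) with no overlap. mt-Nd6, the only protein gene of the minus strand, was at 13000, 10700, 10700 and 8100 CPM against 5250, 3400, 3300 and 3400 CPM (-1.47, SE 0.32, adjusted p = 0.0014, edgeR). mt-Nd2 fell by 1.02, mt-Nd3 by 1.30 and mt-Nd4 by 0.96 on the log2 scale, with adjusted p of 0.0012, 0.00011 and 0.00058 (edgeR). mt-Nd5 and mt-Nd4l did not pass, at -0.45 (SE 0.21, adjusted p = 0.11, edgeR) and -0.54 (SE 0.34, adjusted p = 0.23, edgeR). mt-Nd5 was at 16000, 14700, 24900 and 15400 CPM in 7d-MI + 3, where 1 library reached into the 7d-SHAM + 3 range of 20900 to 30700 CPM.

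mt-Cytb, the one mitochondrial subunit of complex III, fell by 0.76 (SE 0.23, adjusted p = 0.012, edgeR) on the log2 scale. Its levels were 34700, 27700, 27000 and 23400 CPM in 7d-SHAM + 3 against 16900, 14200, 20200 and 15100 CPM in 7d-MI + 3, with no overlap. Of complex V, the ATP synthase, mt-Atp6 fell by 0.73 (SE 0.17, adjusted p = 0.0027, edgeR) and mt-Atp8 by 0.96 (SE 0.22, adjusted p = 0.0019, edgeR), both in the copied stretch. The protein genes thus moved one way but not by one amount, from -1.47 for mt-Nd6 to -0.45 for mt-Nd5.

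After infarction on day 1 fewer of these genes were called. All 13 had a log2 fold change below 0 in 1d-MI + 3 against 1d-SHAM + 3, from -1.12 to -0.12, with a median of -0.30 against 0.04 for all genes (without TMM factors 0.04 against 0.36, so that the sign turned while the distance was -0.34 and -0.32), but edgeR's quasi-likelihood test called 2 lower and 0 higher, where 4.78% of all genes were lower and 4.39% higher. mt-Co1 was at 222000, 192000, 246000 and 172000 CPM in 1d-MI + 3 and at 278000, 277000, 318000 and 417000 CPM in 1d-SHAM + 3 (-0.63, SE 0.18, adjusted p = 0.039, edgeR), with no overlap. mt-Nd6 was at 4820, 4200, 4640 and 2740 CPM against 4020, 5570, 12100 and 14100 CPM (-1.12, SE 0.31, adjusted p = 0.035, edgeR), and here the groups overlapped. The 2 high SHAM libraries were those of prefix 1103. Against prefix 1078 alone neither gene passed (mt-Nd6 -0.22, adjusted p = 0.63, and mt-Co1 -0.41, adjusted p = 0.28, edgeR) and the median of the 13 was 0.09, while against prefix 1103 alone 8 protein genes were lower and the median was -0.57. Both calls were also lost without either library of prefix 1103 (1d-SHAM + 3 replicate 3 or 4), without replicate 1, 2 or 4 of 1d-MI + 3, without 7d-SHAM + 3 replicate 2 or 3 and under other settings given later.

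The interaction of infarction with age at surgery, which asks whether the effect was larger on day 7, was below 0 for all 13 protein genes, with a median of -0.57 against 0.01 for all genes. edgeR's quasi-likelihood test called 4 of them as falling more on day 7 and 0 as falling less, where 4.56% of all genes had a called difference below 0 and 8.6% above. They were mt-Nd1 at -1.10 (SE 0.28, adjusted p = 0.015), mt-Nd3 at -1.16 (SE 0.31, adjusted p = 0.017), mt-Co2 at -0.86 (SE 0.24, adjusted p = 0.022) and mt-Co1 at -0.83 (SE 0.26, adjusted p = 0.041), all from edgeR. With prefix 1078 as the only SHAM of day 1, 8 genes passed and with prefix 1103 1 gene, mt-Nd1 at -0.83 (adjusted p = 0.034, edgeR). mt-Nd1 and mt-Nd3 passed whichever single library was left out. mt-Co1 passed in 4 of 16 such fits and mt-Co2 in 10. With the prefix as a random block in limma-voom, mt-Nd1 passed (adjusted p = 0.046) and mt-Nd3 (0.064), mt-Co1 (0.082) and mt-Co2 (0.085) did not.

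Among SHAM hearts, some protein genes were called higher in the older mice, most of them in the copied stretch. The protein genes made up 44.8 ± 3.11% of counts other than MT rRNA in 7d-SHAM + 3 and 41.6 ± 4.32% in 1d-SHAM + 3 (SD, n = 4 each). These shares overlapped (ratio 1.08, exact permutation p = 0.257). In 7d-SHAM + 3 against 1d-SHAM + 3 all 13 protein genes lay above 0, with a median log2 change of 0.56 against -0.10 for all genes, and edgeR's quasi-likelihood test called 6 higher and 0 lower, where 8.86% of all genes were higher and 11.7% lower. They were mt-Nd3 (1.26), mt-Co3 (1.00), mt-Atp8 (0.89), mt-Atp6 (0.86), mt-Co2 (0.75) and mt-Nd4 (0.68), 5 of which lie in the copied stretch. mt-Nd3 was at 38.9, 42.5, 35.1 and 36.1 CPM in 7d-SHAM + 3 against 12.6, 10.4, 21 and 19.8 CPM in 1d-SHAM + 3, with no overlap. mt-Nd4, which lies outside the stretch, was not called without TMM factors, without a filter, with the prefix as a random block or against prefix 1103 alone. mt-Co1 was not called, at 0.27 (SE 0.18, adjusted p = 0.31, edgeR). Prefix 1078 alone gave 12 genes and prefix 1103 alone 3, which were mt-Atp6, mt-Co3 and mt-Nd3.

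The direct comparison of infarcted hearts, 7d-MI + 3 against 1d-MI + 3, found calls in both directions. The share of the protein genes was 27.6 ± 1.37% against 36.5 ± 3.33% of counts other than MT rRNA (SD, n = 4 each, ratio 0.759) and that of MT rRNA 19.5 ± 0.987% against 11.4 ± 2.82% of all counts (ratio 1.76), neither with overlap (exact permutation p = 0.0286, adjusted 0.12, for each). The 13 protein genes had a median log2 fold change of 0.08 against -0.13 for all genes. edgeR's quasi-likelihood test called mt-Co3 higher at 0.67 (SE 0.17, adjusted p = 0.0045) and mt-Nd1 at -0.54 (SE 0.20, adjusted p = 0.037) and mt-Co1 at -0.56 (SE 0.18, adjusted p = 0.02) lower, 1 and 2 of 13, where 19.3% of all genes were higher and 23.2% lower. mt-Co1 did not overlap between the groups, with 172000 CPM as the lowest 1d-MI + 3 library and 158000 CPM as the highest of 7d-MI + 3. mt-Nd1 passed in 11 of 16 fits with 1 library left out, mt-Co1 in 12 and mt-Co3 in 16. Both lower calls were lost without any 1 of 4 libraries, namely replicates 2 and 4 of 7d-MI + 3 and replicates 1 and 3 of 1d-MI + 3.

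**Figure D3:**
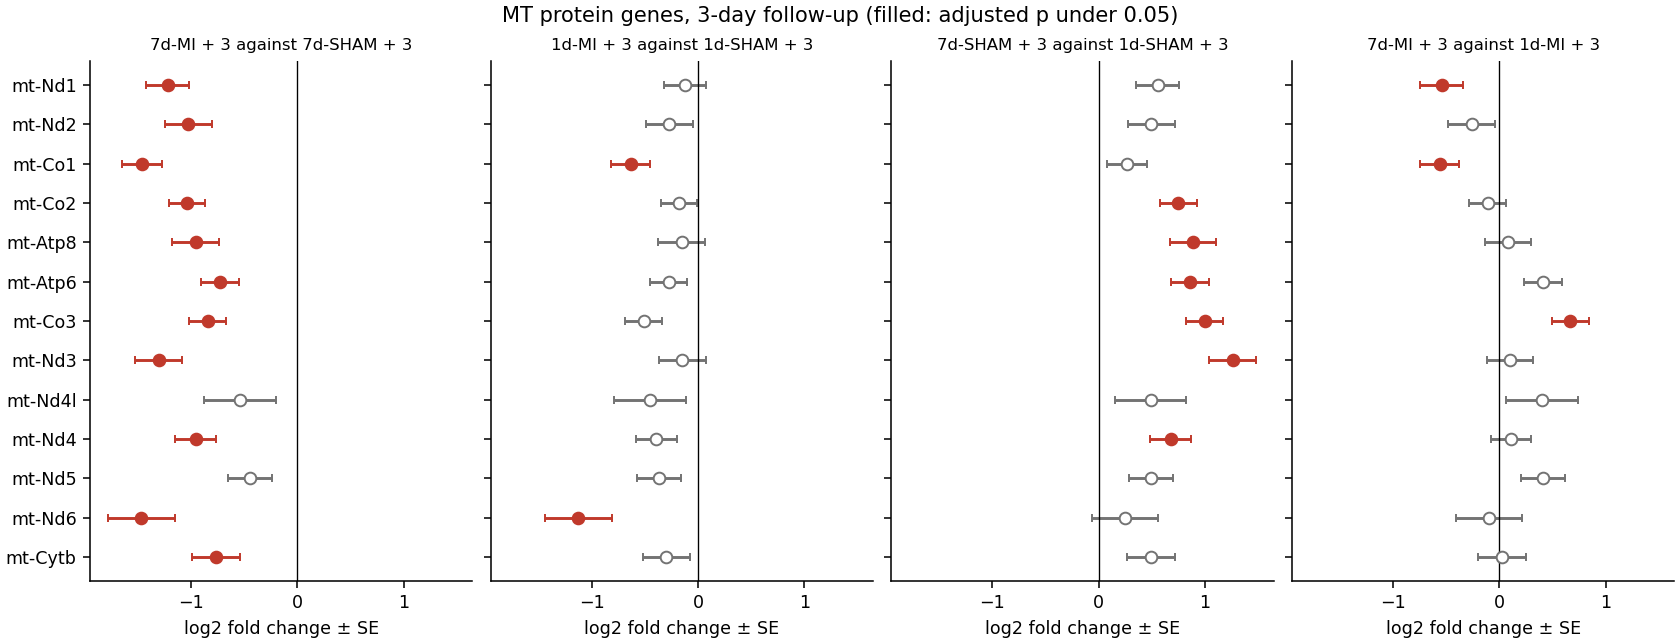
Log2 fold change with SE of each of the 13 MT protein genes in genome order for 4 comparisons at 3 days, filled where edgeR's adjusted p was under 0.05. In 7d-MI + 3 against 7d-SHAM + 3 all 13 points lie below 0 and 11 are filled, in 1d-MI + 3 against 1d-SHAM + 3 2 are filled, and in 7d-SHAM + 3 against 1d-SHAM + 3 the 6 filled points lie above 0.

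The 22 tRNA genes, which carry each amino acid to the mitochondrial ribosome, are 59 to 75 bases long, while reads had 75 cycles at 3 days and 100 at 21 days. A read on a tRNA gene may therefore come from a precursor that still holds a neighbour, and which RNA it came from was not tested. Of the 22, 20 were tested at 3 days. The 5 tRNAs whose values are followed here are shown on their own strand with the anticodon in capitals: the most counted at 3 days (mt-Tl1) and at 21 days (mt-Tp), its neighbour on the other strand (mt-Tt), and mt-Te and mt-Ty, both of the minus strand.
mt-Tl1 (leucine), MT:2676-2750, plus strand: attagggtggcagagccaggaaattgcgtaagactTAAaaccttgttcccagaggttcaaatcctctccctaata
mt-Tt (threonine), MT:15289-15355, plus strand: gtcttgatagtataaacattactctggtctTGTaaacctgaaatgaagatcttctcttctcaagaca
mt-Tp (proline), MT:15356-15422, minus strand: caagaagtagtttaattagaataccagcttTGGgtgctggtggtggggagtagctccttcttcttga
mt-Te (glutamate), MT:14071-14139, minus strand: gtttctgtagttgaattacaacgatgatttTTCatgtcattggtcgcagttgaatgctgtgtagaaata
mt-Ty (tyrosine), MT:5260-5326, minus strand: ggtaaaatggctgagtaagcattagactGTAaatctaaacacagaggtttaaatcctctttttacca

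mt-Tl1, which stands between mt-Rnr2 and mt-Nd1, held 38.5% to 66.4% of all tRNA counts in a library at 3 days and 1.6% to 7.31% at 21 days. Its level was 1440, 1050, 953 and 1170 CPM in 7d-SHAM + 3 against 492, 533, 517 and 370 CPM in 7d-MI + 3, with no overlap. In that comparison edgeR's quasi-likelihood test called 7 tRNA genes lower and 0 higher of 20, led by mt-Tl1 at -1.27 (SE 0.23, adjusted p = 0.00031), mt-Tm (methionine) at -1.50 (SE 0.29), mt-Tl2 (the other leucine) at -1.57 (SE 0.33), mt-Td (aspartate) at -3.05 (SE 0.71) and mt-Tv (valine, between the rRNA genes) at -1.48 (SE 0.39). mt-Td lies in the copied stretch and rests on few counts, 41, 48, 19 and 35 in 7d-SHAM + 3 against 10, 9, 6 and 2 in 7d-MI + 3. Of all genes tested in this comparison, 15.5% were lower and 19.1% higher. The median of the 20 tRNA genes was -0.69. All 5 passed with any 1 library left out.

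After infarction on day 1 the tRNA genes called lower lay mostly on the minus strand. In 1d-MI + 3 against 1d-SHAM + 3 edgeR's quasi-likelihood test called 7 tRNA genes lower and 0 higher, 5 of the 8 tested on the minus strand and 2 of the 12 on the plus strand, with median log2 changes of -1.68 and -0.80. Of all genes tested in that comparison, 4.78% were lower and 4.39% higher. In 7d-MI + 3 against 7d-SHAM + 3, where 15.5% of all genes were lower, 2 of 8 minus-strand and 5 of 12 plus-strand genes were called lower. Their medians were -0.53 and -1.03. The interaction lay above 0 for all 8 genes of the minus strand, and 0 of them were called by edgeR, with 3 at an unadjusted p under 0.05. mt-Ty was at 12.7, 22.4, 33.3 and 21.4 CPM in 1d-MI + 3 and at 58.7, 33.9, 124 and 154 CPM in 1d-SHAM + 3 (-2.04, SE 0.42, adjusted p = 0.012, edgeR). As a share of all tRNA counts, the minus strand held 14%, 13.2%, 17% and 13.5% in 1d-MI + 3, against 38.9%, 16.8%, 34.2% and 28.3% in 1d-SHAM + 3, where replicate 2 fell within the range of the infarcted hearts. Against prefix 1078 alone 0 of the 5 minus-strand calls passed in edgeR. There mt-Ty had -1.04 (adjusted p = 0.16, edgeR) and mt-Tp, the proline tRNA, -0.47 (adjusted p = 0.38, edgeR).

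mt-Tt, the threonine tRNA, had another pattern, and had it against either prefix of 1d-SHAM + 3. No other group carried these prefixes. It was at 61.7, 60.9, 72.2 and 53.1 CPM in 1d-SHAM + 3, at 32, 26.1, 44.1 and 26.5 CPM in 1d-MI + 3, at 21.4, 18.2, 26.2 and 25.6 CPM in 7d-SHAM + 3, and at 18.1, 20.3, 25.3 and 19.7 CPM in 7d-MI + 3. The young SHAM hearts lay above all others, and the 2 groups of day 7 overlapped. mt-Tt fell with infarction on day 1 by 0.95 (SE 0.17, adjusted p = 0.0033, edgeR) on the log2 scale, was lower in 7d-SHAM + 3 than in 1d-SHAM + 3 at -1.44 (SE 0.17, adjusted p = 1.6e-05, edgeR), and had an interaction of 0.81 (SE 0.24, adjusted p = 0.029, edgeR). It passed in both comparisons with 1d-SHAM + 3 under every alternative run, prefix 1078 (-0.93 and -1.40) and prefix 1103 (-0.98 and -1.45) included, and the interaction passed in 9 of 16 fits with 1 library left out.

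Among SHAM hearts 4 of 20 tRNA genes were called higher in the older mice and 5 lower, where 8.86% of all genes were higher and 11.7% lower. The highest were mt-Td at 3.39 (SE 0.73, on 2 to 6 counts in the libraries of 1d-SHAM + 3), mt-Tl2 at 1.32 (SE 0.33) and mt-Tl1 at 1.07 (SE 0.23), with mt-Tm at 0.91 (SE 0.29). Besides mt-Tt, mt-Th (histidine) was among the lower ones at -1.50 (SE 0.43, adjusted p = 0.021, edgeR). Only mt-Tt of these 9 calls passed under every alternative. Against prefix 1103 alone none of the 4 higher genes passed, with adjusted p of 0.052 for mt-Td, 0.064 for mt-Tl1, 0.14 for mt-Tl2 and 0.3 for mt-Tm (edgeR), nor did mt-Th, at -0.34 (adjusted p = 0.69, edgeR). With the prefix as a random block in limma-voom, mt-Tm (adjusted p = 0.1), mt-Ta (0.11), mt-Tn (0.12), mt-Ts2 (0.24) and mt-Th (0.25) did not pass. In 7d-MI + 3 against 1d-MI + 3 edgeR called 5 of 20 tRNA genes higher, near the 19.3% of all genes, and 1, mt-Tt at -0.62 (SE 0.17), lower, where 23.2% of all genes were lower. The higher ones included mt-Ti (isoleucine) at 1.71 (SE 0.39), mt-Tq (glutamine) at 1.03 (SE 0.31), mt-Te at 0.99 (SE 0.31) and mt-Tp at 0.80 (SE 0.27), and all 8 tRNA genes tested on the minus strand had a log2 fold change above 0. In the interaction mt-Tl1 at -1.26 (SE 0.33, adjusted p = 0.016, edgeR) and mt-Tl2 at -1.94 (SE 0.46, adjusted p = 0.012, edgeR) passed together with mt-Tt. With the prefix as a random block in limma-voom, mt-Tl2 passed (adjusted p = 0.03) and mt-Tl1 (0.065) and mt-Tt (0.13) did not.

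**Figure D4:**
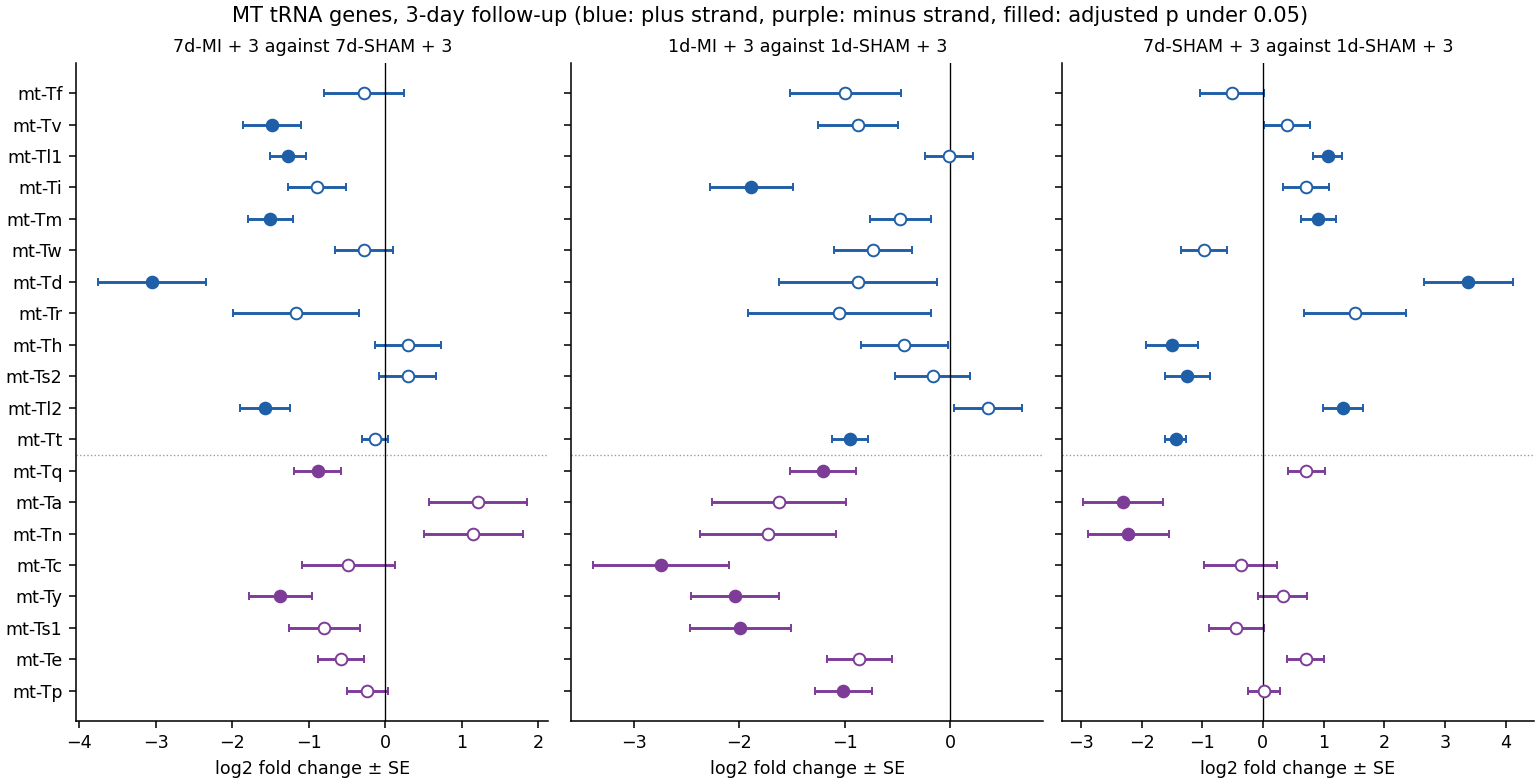
Log2 fold change with SE of the 20 MT tRNA genes tested at 3 days, plus strand (blue) above the dotted line and minus strand (purple) below it, filled where edgeR's adjusted p was under 0.05. In 1d-MI + 3 against 1d-SHAM + 3 all 8 minus-strand genes lie below 0 and 5 are filled, while mt-Tt, the last blue row, is at -0.95 there and at -1.44 between the SHAM groups.

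The make-up of the protein counts, taken per kilobase, held less of complex IV after infarction on day 7. Its 3 genes held 57%, 59.4%, 58.3% and 58.5% in 7d-SHAM + 3 against 51.2%, 52.9%, 49.3% and 52.3% in 7d-MI + 3, nearly all of it mt-Co1. The 7 genes of complex I held 37%, 35.1%, 35.9% and 35.9% against 41.3%, 39.4%, 40.4% and 39.9%, and mt-Cytb of complex III 5.93%, 5.46%, 5.79% and 5.58% against 7.36%, 7.54%, 10.2% and 7.65%. None of these 3 shares overlapped between the groups, each with an exact permutation p = 0.0286 (0.12 adjusted over the 80 comparisons). Complex V, both of whose genes lie in the copied stretch, stayed under 0.11% at 3 days. The share of complex IV was 55.2%, 55.9%, 57.2% and 59.2% in 1d-MI + 3 and 69.5%, 60.5%, 58.7% and 61.9% in 1d-SHAM + 3, which overlapped (exact permutation p = 0.0571).

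Against their nuclear partners no difference of the protein genes was detectable at 3 days after infarction. The counts of the 13 genes over the summed counts of 79 nuclear subunits of the respiratory chain were 21.9, 16.8, 17 and 14.7 in 7d-SHAM + 3 against 16.6, 16.6, 15.6 and 15.4 in 7d-MI + 3. The groups overlapped, with a ratio of 0.921 and an exact permutation p = 0.486. In 1d-SHAM + 3 the values were 14.3, 17.9, 16.6 and 18.9 and in 1d-MI + 3 16.3, 15.5, 14.5 and 12.8 (ratio 0.874, exact permutation p = 0.143). With 4 libraries a group a difference within this spread was not detectable.

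**Figure D5:**
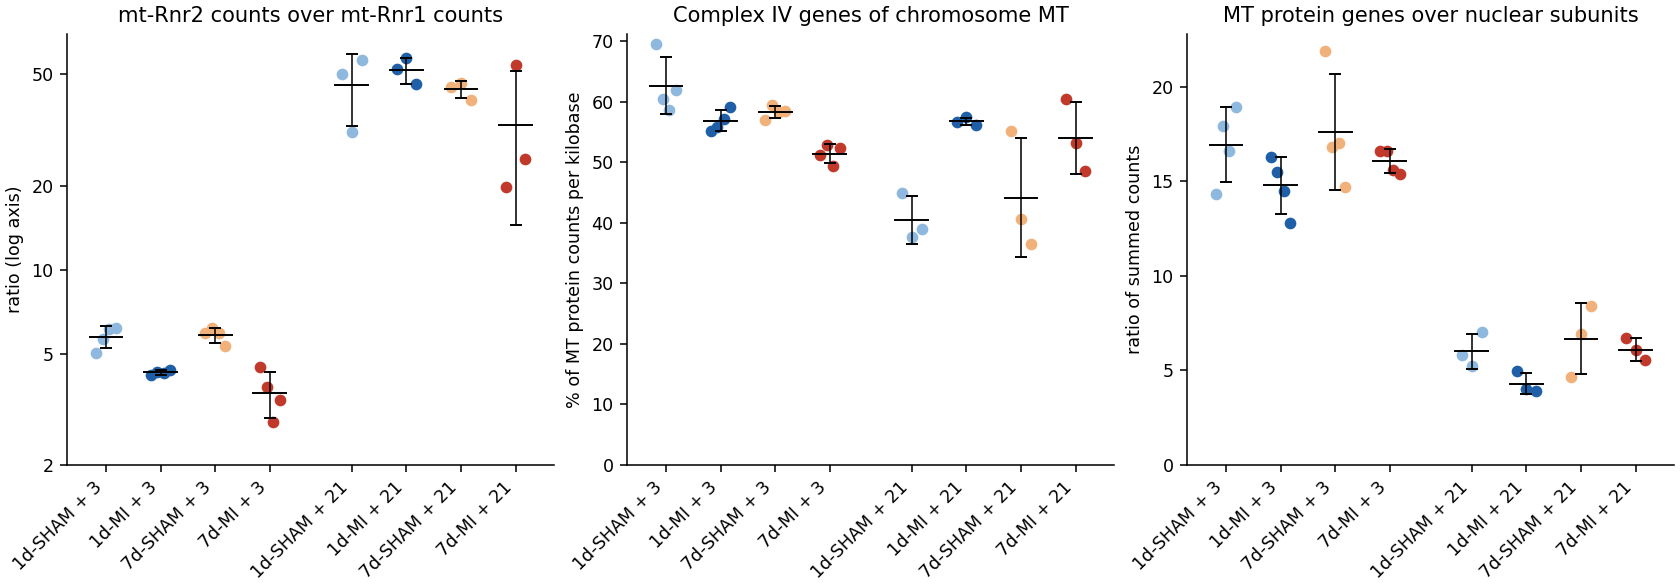
Ratio of mt-Rnr2 to mt-Rnr1 counts on a log axis (left), share of the 3 complex IV genes in MT protein counts per kilobase (middle) and ratio of MT protein counts to the summed counts of 79 nuclear subunits (right), with 1 point per library and a line with bars for mean and SD. At 3 days the rRNA ratio of every MI library, 2.84 to 4.48, lies below every SHAM library, 5.05 to 6.21, while the ratio to nuclear subunits overlaps between all groups.

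The nuclear subunits moved with the mitochondrial ones. In 7d-MI + 3 against 7d-SHAM + 3, 76 of 79 were lower and 0 higher by edgeR's quasi-likelihood test, with a median of -1.08. Of all genes 15.5% were lower and 19.1% higher. Cox6c of complex IV was at -1.66 (SE 0.14, adjusted p = 9.3e-08, edgeR), Ndufa4 at -1.43 (SE 0.13, adjusted p = 1.1e-07, edgeR) and Ndufa1 of complex I at -2.08 (SE 0.20, adjusted p = 2.6e-07, edgeR). In 1d-MI + 3 against 1d-SHAM + 3, 8 were lower and 0 higher (median -0.32), beside 4.78% and 4.39% of all genes. The 8 were led by Ndufv3 at -0.77 (SE 0.14), Atp5o at -0.93 (SE 0.21) and Ndufa12 at -0.57 (SE 0.15). Between the SHAM groups 30 were higher and 0 lower (median 0.42), beside 8.86% and 11.7% of all genes. Among them were Cox7a1 at 1.02, Cox8b at 0.94 and Cox5b at 0.86. The interaction was called below 0 for 52 and above for 0, beside 4.56% and 8.6% of all genes. In 7d-MI + 3 against 1d-MI + 3, 39 were lower and 2 higher, beside 23.2% and 19.3% of all genes. The 2 higher were Atp5g1 at 0.69 and Atp5d at 0.60. In the same comparison Cox6c was at -1.44, Ndufa4 at -1.04 and Ndufc1 at -0.98, and all 79 nuclear subunits had a median of -0.42. The 13 mitochondrial genes had a median of 0.08, and the 7 outside the copied stretch -0.09. The ratio of MT protein counts to nuclear subunit counts in 7d-MI + 3 was 1.09 times that in 1d-MI + 3, with overlap (exact permutation p = 0.143).

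Genes that copy, read and process the mitochondrial genome also leaned lower after infarction on day 7, in part. Of 22 genes of mitochondrial transcription and replication 9 were lower and 1 higher in 7d-MI + 3 against 7d-SHAM + 3 (edgeR), where 15.5% of all genes were lower and 19.1% higher. Polrmt, the mitochondrial RNA polymerase, was at 5.29 ± 0.533 against 8.96 ± 1.46 CPM (SD, n = 4 each) and fell by 0.76 (SE 0.19) on the log2 scale, and Tfam, which packs the DNA and starts transcription, was at 17.3 ± 2.69 against 28.1 ± 0.548 CPM and fell by 0.70 (SE 0.14). Peo1, the helicase Twinkle, was at -1.19 (SE 0.22) and the elongation factor Tefm at -0.77 (SE 0.16), while Primpol, a primase-polymerase, rose by 0.63 (SE 0.17). In 1d-MI + 3 against 1d-SHAM + 3 0 of the 22 were called by edgeR's quasi-likelihood test, where 4.78% of all genes were lower and 4.39% higher. Polrmt was at 0.07 (SE 0.19) and Tfam at -0.27 (SE 0.14). The interaction was called below 0 for 2 of the 22 and above 0 for 1, beside 4.56% and 8.6% of all genes. It passed for Polrmt at -0.83 (SE 0.26, adjusted p = 0.043, edgeR) and Tefm at -0.87 (SE 0.23, adjusted p = 0.016, edgeR), but not for Tfam at -0.43 (SE 0.19, adjusted p = 0.15, edgeR).

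Of 35 genes of mitochondrial RNA processing and stability, 19 were lower and 2 higher in 7d-MI + 3 against 7d-SHAM + 3, beside the same 15.5% and 19.1% of all genes. Lrpprc and Slirp, whose complex keeps mitochondrial mRNAs from decay, fell by 0.69 (SE 0.15) and 0.51 (SE 0.14), and Fastk, which binds mt-Nd6 RNA, fell by 0.93 (SE 0.12). Fastkd2 was at -0.70 and Ptcd2 at -0.71, and the tRNA methylase Nsun2 at 0.45 and the nuclease Rexo2 at 0.46 were the 2 higher. Elac2, which cuts the tail ends of tRNAs, was at 0.02 (SE 0.17, adjusted p = 0.98, edgeR). On day 1 Mto1 at -0.41 and Hsd17b10, a subunit of mitochondrial RNase P, at -0.59 were lower, where 4.78% of all genes were. In 7d-MI + 3 against 1d-MI + 3, 13 of the 35 were lower, where 23.2% of all genes were, led by Trmt10c (RNase P) at -1.05, Trnt1 (which adds the tRNA tail) at -0.66 and Trmu at -1.12, and Nsun2 was higher at 0.80.

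Of 35 translation factors and tRNA synthetases, 18 were lower and 1 higher in 7d-MI + 3 against 7d-SHAM + 3 (15.5% and 19.1% of all genes), with Taco1, a translational activator of mt-Co1, at -0.90 (SE 0.16), Mtif3 at -0.67 (SE 0.14) and Gatb at -0.75 (SE 0.16) lower and Gars at 0.42 (SE 0.15) higher. On day 1 only Kars was called, at -0.57 (SE 0.16), where 4.78% of all genes were lower. In 7d-MI + 3 against 1d-MI + 3 14 were lower and 2 higher (23.2% and 19.3% of all genes), with Ears2 at -1.81, Guf1 at -1.25 and Yars2 at -1.06 and with Kars at 0.69. The interaction was called below 0 for 3 of the 35 and above 0 for 0, beside 4.56% and 8.6% of all genes. The 3 were Mtif2 at -0.97, Tsfm at -0.77 and Guf1 at -0.68, and the median of the 35 was -0.41. Of 12 regulators of mitochondrial biogenesis, Ppargc1a, the coactivator PGC-1alpha, stood at 203 ± 28.3 CPM in 7d-SHAM + 3 against 42.6 ± 21.4 CPM in 7d-MI + 3 (SD, n = 4 each), a log2 change of -2.25 (SE 0.29, adjusted p = 1.6e-05, edgeR). In 1d-SHAM + 3 and 1d-MI + 3 it was at 63.1 ± 12 and 47.1 ± 15.3 CPM (-0.42, SE 0.28, adjusted p = 0.32, edgeR), and the interaction was -1.82 (SE 0.40, adjusted p = 0.0069, edgeR). Perm1 and Esrra fell with it by 1.05 and 0.95 on day 7, whereas Pprc1 and Ppard rose by 1.27 and 1.29, in all 6 lower and 2 higher of 12 beside 15.5% and 19.1% of all genes, and Ppard also rose on day 1 by 1.24 (SE 0.39, adjusted p = 0.049, edgeR).

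Markers of other cells and measures of the libraries moved with the same comparison. The 8 macrophage markers were all higher in 7d-MI + 3 than in 7d-SHAM + 3, with sums of 324 to 568 against 127 to 166 CPM, and 4 of the 5 neutrophil markers tested were higher, with sums of 39.5 to 77.6 against 2.67 to 4.93 CPM, where Ly6g was at 0 in 8 of the 16 libraries. Of 8 fibroblast markers 6 were higher and 2 lower (sums of 7510 to 8260 against 4320 to 4900 CPM), and of 12 ventricular markers 9 were lower and 0 higher (37600 to 81700 against 78100 to 84500 CPM). After infarction on day 1 3 of 8 macrophage markers were higher (85.9 to 202 against 44.7 to 74.7 CPM) and 2 of 12 ventricular markers lower (28700 to 40200 against 44200 to 53300 CPM). On day 1 also 2 of 8 fibroblast markers were higher and 1 lower, and 2 of 5 neutrophil markers tested were higher. Endothelial markers went 4 lower and 1 higher of 7 on day 7, and 2 lower and 0 higher on day 1. Nuclear-retained RNAs were higher for 2 of 4 on day 7 and for 0 on day 1. For the 5 erythroid and 3 adipocyte markers tested there were 0 calls at either age. Of all genes tested, 19.1% were higher and 15.5% lower on day 7, and 4.39% higher and 4.78% lower on day 1. Atrial markers summed to 2820 to 4820 CPM in 1d-MI + 3 and 44.1 to 371 CPM in 1d-SHAM + 3, and to 857 to 2710 against 122 to 193 CPM on day 7. Of the 3 tested, 2 were called higher on day 1 and 1 on day 7, with median log2 changes of 1.47 and 0.56. Genes with a count were 21183 to 22316 in 7d-MI + 3 against 19446 to 20239 for its SHAM group, and 27324 to 35932 in 1d-MI + 3 against 20069 to 30025. Counts on 1742 receptor genes of the olfactory and vomeronasal organs were 21.4 to 29.7 against 16 to 20.6 per 1000000 counts on day 7 and 47.8 to 218 against 20.6 to 82.3 on day 1. Nuclear rRNA loci took 0.12% to 0.254% against 0.0325% to 0.0733% of all counts on day 7 and 0.0607% to 0.14% against 0.0334% to 0.0404% on day 1. The part of these in the levels of the mitochondrial genes was not tested.

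At 21 days no mitochondrial gene was called in any comparison. The quasi-likelihood test of edgeR, adjusted after Benjamini and Hochberg over 25140 genes, called 0 of 13 protein and 0 of 21 tRNA genes in all 5, against 0.0318% of all genes in 7d-MI + 21 against 1d-MI + 21, 0.0159% in 1d-MI + 21 against 1d-SHAM + 21, 0.00398% in 7d-MI + 21 against 7d-SHAM + 21, and 0% between the SHAM groups and for the interaction. In the order of these 5 comparisons, 0, 7, 9, 0 and 0 protein genes had an unadjusted p under 0.05, DESeq2 called 0, 1, 6, 0 and 0, and limma-voom 0 in each. The corresponding tRNA genes under 0.05 numbered 6, 7, 15, 2 and 0, and DESeq2 called 2, 2, 8, 0 and 0. Libraries of a group also spread more, with a biological coefficient of variation of 0.578 against 0.327 at 3 days.

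The fold changes at 21 days were nevertheless below 0 for all protein genes after infarction at both ages. The 13 protein genes had a median log2 change of -1.19 in 1d-MI + 21 against 1d-SHAM + 21 and of -1.22 in 7d-MI + 21 against 7d-SHAM + 21, against -0.07 for all genes in both, and all 13 lay below 0 in each. mt-Nd1 was at 29700, 24400 and 39300 CPM in 1d-SHAM + 21 against 14100, 14000 and 12700 CPM in 1d-MI + 21, with no overlap (-1.19, SE 0.51, adjusted p = 0.32, edgeR). mt-Cytb was at 22500, 28300 and 27700 against 13900, 13300 and 11400 CPM (-1.03, SE 0.51, adjusted p = 0.37, edgeR). mt-Co1 had the smallest change of the 13, at 119000, 103000 and 123000 against 97000, 100000 and 93000 CPM (-0.25, SE 0.51, adjusted p = 0.83, edgeR). In 7d-SHAM + 21 mt-Nd1 was at 17300, 35300 and 29900 CPM and in 7d-MI + 21 at 6350, 17200 and 13600 CPM, where the lowest SHAM library, replicate 1, lay just above the highest MI library. Without that library edgeR called 8 protein and 17 tRNA genes lower in 7d-MI + 21 against 7d-SHAM + 21, and 3 protein genes lower in 1d-MI + 21 against 1d-SHAM + 21. In the former comparison 6246 genes in all were called, where 25140 were tested with all libraries. The shares of all genes called lower in that fit are not given here, so these calls cannot be set against a background.

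The composition at 21 days did not overlap between 1d-MI + 21 and 1d-SHAM + 21 for complexes I and IV. In 1d-SHAM + 21 complex I held 45.2 ± 3.21% and complex IV 40.5 ± 3.94% of the protein counts per kilobase, and in 1d-MI + 21 31.6 ± 1.19% and 56.8 ± 0.638% (SD, n = 3 each). Neither share overlapped, with an exact permutation p = 0.1, the smallest that 3 against 3 allows. The ratio to the 79 nuclear subunits was 5.82, 5.21 and 7.02 in 1d-SHAM + 21. The infarcted hearts had 4.97, 4.02 and 3.93 when operated on day 1 (1d-MI + 21) but 6.72, 6.07 and 5.53 when operated on day 7 (7d-MI + 21). The control of the latter, 7d-SHAM + 21, had 4.67, 6.94 and 8.4, which overlapped both 7d-MI + 21 (ratio 0.939, exact permutation p = 0.8) and 1d-MI + 21. The 1d-MI + 21 libraries lay below 1d-SHAM + 21 and 7d-MI + 21 (ratio 0.717 to 1d-SHAM + 21, and 7d-MI + 21 at 1.42 times 1d-MI + 21, exact permutation p = 0.1 and 0.25 adjusted for each). The share of MT protein genes, 6.4% to 35.4% in 1d-SHAM + 21 against 10.3% to 20.9% in 1d-MI + 21, overlapped. It was lowest in 1d-SHAM + 21 replicate 3, the library with the highest share of nuclear rRNA loci, 62.7%.

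tRNA and rRNA counts at 21 days had another profile than at 3 days. mt-Tp held 12.6% to 48.8% of all tRNA counts in a library, against 3.06% to 7.16% at 3 days, and the minus strand held 59.1% to 83.4%, against 13.2% to 38.9%. mt-Tp was at 919, 161 and 1470 CPM in 1d-SHAM + 21 against 185, 283 and 370 CPM in 1d-MI + 21, which overlapped. Counts of mt-Rnr2 were 19.8 to 57.1 times those of mt-Rnr1, against 2.84 to 6.21 times at 3 days. The ratio was 51.8 ± 5.49 in 1d-MI + 21 against 45.8 ± 13.1 for 1d-SHAM + 21 (SD, n = 3 each, exact permutation p = 0.6), above rather than below the control mean, while 7d-MI + 21 had 32.9 ± 18.5 against 44.2 ± 3.14 for 7d-SHAM + 21 (SD, n = 3 each, exact permutation p = 0.4), with overlap at both ages. Age at tissue collection, library kit and sequencer all differ between the follow-ups and cannot be told apart. Among the regulators, Ppargc1a was at 222 ± 36.6 CPM in 1d-MI + 21 and 49.7 ± 10.4 CPM in 7d-MI + 21 (SD, n = 3 each), the one list gene called at 21 days (-2.16, SE 0.33, adjusted p = 0.037, edgeR), while Polrmt, Tfam, Lrpprc, Slirp and Elac2 were not called there.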

How the data were processed

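RNA of 28 mouse hearts was sequenced as total RNA (TruSeq stranded kit and NextSeq550 at 3 days, ScriptSeqV2 and HiSeq at 21 days). For each library the authors deposited a count per gene, a CPM that equals the count over the file total, an RPKM that also divides by gene length, and log2 columns of both. Only the deposited counts were used. The submitters' processing notes name TopHat2 2.0.11, Bowtie2 2.2.2, Cufflinks 2.2.1 and GRCm38, while no source used here gives the counting tool, its strand setting or the treatment of reads with several matches. The 2 libraries deposited as 2 lanes (1d-SHAM + 21 replicate 3 and 7d-SHAM + 21 replicate 3) were summed. Replicate numbers at 3 days follow the order of deposit and pair nothing. Rows without annotation held at most 0.205% of counts.

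Library size was the column total without mt-Rnr1 and mt-Rnr2, followed by TMM factors. Genes kept by filterByExpr (minimum count 10, minimum total 15) were fitted with edgeR 4.0.16 by quasi-likelihood with robust dispersion and 1 mean per group, apart at each follow-up, and called at a Benjamini-Hochberg adjusted p under 0.05. At 3 days mt-Tk and mt-Tg and at 21 days mt-Td were left out by the filter. Limma 3.58.1 (voom) and DESeq2 1.42.0 were alternatives in R 4.3.3, and the fit was tested on simulated data. Shares and ratios of single libraries were compared by two-sided exact permutation tests on log2 values. Nuclear copies were sought with blastn in 141730 nuclear GENCODE M21 transcripts (at least 100 bases and 95% identity), the genome sequence itself not being used. Of the list symbols 246 were matched and 5 were not.

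P-values measure the spread between mice of a group. No animal name prefix was shared between groups, so prefix and group cannot be told apart in any comparison. Mice of a group often shared a prefix, and whether such mice vary independently was not tested. Comparisons share control libraries: each 3-day group enters several. The members and the gene lists were chosen with earlier results of these data known. Named are all 15 rRNA and protein genes, tRNA genes that passed (up to 5 of smallest p a comparison) or were among the 3 most counted, the 3 list genes of smallest p in each direction, and Polrmt, Tfam, Lrpprc, Slirp, Elac2, Ppargc1a and Lars2. Nuclear copies are named by the MT gene they match, mt-Ta, mt-Tn and mt-Ts2 are named where calls were lost, and mt-Tm and mt-Tp also where they were not called, after their values were seen. Alternatives were RLE factors, no TMM factors, no or a stricter filter, only the groups compared, a random block for the animal name prefix, a replicate block, and each library left out. The split by prefix 1078 and 1103, the libraries of most nuclear rRNA left out and the receptor gene measure were added after seeing the data.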

Additional observations from a re-analysis of the deposited data

Results flagged for a closer look

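Among groups of 4 libraries, 100 were searched for a value far from the other 3 by Dixon's criterion at the 95% level, and 6 had one. Chance gives about 1 in 20 groups. The library 7d-MI + 3 replicate 3 was high for mt-Nd5, at 24900 CPM, and for the share of complex III (mt-Cytb) in the protein counts per kilobase, at 10.2%. mt-Nd6 was high in 7d-MI + 3 replicate 1, at 5250 CPM. The library 1d-SHAM + 3 replicate 1 was low for complex III, at 4.11%, and for complex V, at 0.0358%. Complex V was high in 1d-MI + 3 replicate 4, at 0.0836%.

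For 7 genes the effect of infarction differed between the ages by an interaction in edgeR's quasi-likelihood test at 3 days. The difference, day 7 less day 1 on the log2 scale, was -1.10 for mt-Nd1, -0.83 for mt-Co1, -0.86 for mt-Co2, -1.16 for mt-Nd3, -1.26 for mt-Tl1 and -1.94 for mt-Tl2. It was 0.81 for mt-Tt, which was called lower on day 1 and was not called on day 7. With the prefix as a random block in limma-voom, mt-Nd1 (adjusted p = 0.046) and mt-Tl2 (0.03) passed, and mt-Nd3 (0.064), mt-Tl1 (0.065), mt-Co1 (0.082), mt-Co2 (0.085) and mt-Tt (0.13) did not.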

How the results depend on the processing

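Among counts of called protein genes, 225 alternatives stayed within 1.5 times the reported count or on its side, 12 rose and 26 fell, and of values for single genes 4364 stayed on their side of the threshold, 119 came to pass it and 124 no longer passed, with no called gene turning direction. The cause of the changes was not tested.

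Without TMM factors 5 protein genes were called in 7d-MI + 3 against 1d-MI + 3, 0 in 1d-MI + 3 against 1d-SHAM + 3 (median 0.04) and 5 in 7d-MI + 3 against 7d-SHAM + 3 (median -0.37), and the interaction with age at 3 days had a median of -0.29. In 1d-MI + 3 against 1d-SHAM + 3, 1 was called with RLE factors, 1 at a mean count of 50 or more, 0 with only the 2 groups and 0 with a random block for the prefix, which left 1 in the interaction. With SHAM libraries of prefix 1078 alone, 0 (median 0.09) were called in 1d-MI + 3 against 1d-SHAM + 3, 12 (median 1.05) between SHAM groups and 8 (median -1.04) in the interaction, and with prefix 1103 alone 8 (median -0.57), 3 and 1. At 21 days DESeq2 called 1 after infarction on day 1 and 6 on day 7, only the 2 groups gave 4 on day 1, and no filter gave 2 on day 7. As shares of counts rather than per kilobase, the log2 ratio of complex I was 0.19 in 7d-MI + 3 against 1d-MI + 3 and 0.26 in 7d-MI + 3 against 7d-SHAM + 3, and that of complex V in the latter 0.47.

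Leaving out 1 library gave 1 to 4 genes in 7d-MI + 3 against 1d-MI + 3, 0 to 3 in 1d-MI + 3 against 1d-SHAM + 3, 11 to 12 in 7d-MI + 3 against 7d-SHAM + 3, 5 to 11 between SHAM groups (11 without 1d-SHAM + 3 replicate 4) and 2 to 5 in the interaction. At 21 days it gave 0 to 3 on day 1 and 0 to 8 on day 7, where every fit with a call was the one without 7d-SHAM + 21 replicate 1. Leaving out the library of most nuclear rRNA in each 21-day group gave 0 calls.

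Replicate numbers at 21 days were not used as pairs in the main fit. Of 15 pairs of libraries with the same number, 8 had a correlation of deviations from the group means over 0.1. The 15 ran from -0.46 to 0.43 with a median of 0.21, against a median of -0.07 for pairs with different numbers. Whether the numbers pair the libraries was not tested. A replicate block gave 2 protein genes lower in 7d-MI + 21 against 7d-SHAM + 21 and medians of -0.72 and -1.20 on days 1 and 7.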

Other observations

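Lars2, the mitochondrial leucyl-tRNA synthetase, was at 11.1 to 101 CPM in the libraries of the 3-day follow-up and at 829 to 292000 CPM at 21 days, where the highest level came from 1d-SHAM + 21 replicate 3, the library with 62.7% of its counts in nuclear rRNA loci. No comparison called it by edgeR's quasi-likelihood test.

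In the 2 sequencing lanes of 1d-SHAM + 21 replicate 3, mt-Atp6 had 6596 and 6428 counts, while its nuclear copy Gm10925 had 17026 and 39340.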
